A study of Mus musculus with 227 samples.

Results

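The comparison described here sets single 6C3+ stromal cells of newborn mouse bone against single THY+ cells. Cells were taken by their sort label and kept where at least 1000 genes were detected, which left 77 cells: 34 of 92 6C3+ cells and 43 of 72 THY+ cells. The rest of the series is 37 mSSC and 26 CSP cells. Detection in a cell means an FPKM (mapped fragments per kilobase of transcript, corrected for library size) of 1 or more. Just inside and just outside that limit lay 6C3+ cells with 1031 and 787 detected genes, and THY+ cells with 1202 and 978.

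BL6 mice of postnatal day 3 were the source of all cells, which came from long bones with the tissue labelled as bone and bone marrow. 6C3+ cells were gated as CD45-, Ter-119-, AlphaV+, Thy-, 6C3+ and CD105+. THY+ cells were gated as CD45-, Ter-119-, Tie2-, AlphaV+, Thy+, 6C3- and CD105+, so absence of Tie2 is named for THY+ cells and not for 6C3+ cells, and CD105 and AlphaV are shared. Both were sorted a second time, captured on the Fluidigm C1 system and made into libraries with SMARTer and Nextera XT chemistry and ERCC spike-in RNA. No animal or culture is named, so each population counted as 1 sample: the differences have no replicate check, no p-value was computed, and the exact Clopper-Pearson 95% intervals given in parentheses after shares of cells cover counting error between cells only.

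In newborn long bones, cartilage at the joint ends and growth plates, the fibrous periosteum around the shaft, and perivascular cells of the marrow all lie close together. Chondrocytes make collagens II and IX and cartilage proteoglycans. Cells at the joint surface secrete lubricin, periosteal cells are rich in collagen I and periostin, and pericytes wrap small vessels and carry contractile and Notch pathway genes. 6C3 is an aminopeptidase encoded by Enpep, known as a marker of stromal cells that sustain B-lineage cells in culture, and Thy1 is a surface glycoprotein of fibroblasts and other stromal cells.

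The kept 6C3+ cells had 1031 to 5572 detected genes (median 2639), against 1202 to 5786 (median 2835) in THY+ cells. The summed FPKM of all endogenous genes was 43852 to 737270 (median 366748) in 6C3+ cells and 75076 to 3418644 (median 752613) in THY+ cells, and spike-ins took a median of 18.9% of all FPKM in 6C3+ cells and 20.8% in THY+ cells. Differences below are on the deposited scale unless a second value is named as rescaled, which means that each cell was brought to the same endogenous total of 1000000. Each library is labelled with an N index and an S index, and cells that share an S index are called an index row here. Spike-in shares also differed by index row. In the first 2 index rows the median was 0.893% in 6 6C3+ cells and 7.18% in 20 THY+ cells, and in the other rows 21.3% in 28 6C3+ cells and 35.5% in 23 THY+ cells. 6C3+ and THY+ cells had no N index in common, and the labels name no plate or run. An effect of separate processing therefore cannot be told apart from one of the population.

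The transcripts of the sort antigens went with the labels in direction, although most cells listed them at 0. Enpep was detected in 26.5% of 6C3+ cells (12.9 to 44.4, 9 of 34) and in 6.98% of THY+ cells (1.46 to 19.1, 3 of 43). Thy1 was detected in 0 of 34 6C3+ cells, which allows a share of up to 10.3%, and in 20.9% of THY+ cells (10.0 to 36.04, 9 of 43). Eng, which encodes CD105 and is part of both gates, was detected in 3 6C3+ cells and 10 THY+ cells. Itgav, the gene of the AlphaV chain, was detected in 22 6C3+ and 26 THY+ cells, and Ptprc, the gene of CD45, in 0 of both. Tek, the gene of Tie2, was detected in 1 6C3+ cell and 0 THY+ cells.

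Of 6169 genes that reached detection in 20% or more of either population, 18 (0.292%) were higher in 6C3+ cells by at least 2 in mean log2(FPKM + 1), and 78 (1.26%) were lower. This size of 2 can be read as a 4-fold difference only for well-measured genes, and the added 1 understates low ones. Where many cells list a gene at 0, the difference also depends on the share of positive cells. It can then exceed the difference in log2 of the mean or have the other sign, as for Cthrc1 below. In the gene lists below, only members among the 6169 compared genes could count as past the size. List medians take all measured members, also those not compared, while the median over all compared genes does not. After rescaling the split was 1.69% higher and 0.632% lower, the second of these 39 genes. The median difference over all compared genes was -0.32 as deposited and 0.11 after rescaling, a shift of 0.43. All 18 higher genes passed the size on both scalings (0.292%), as did 37 of the lower ones (0.6%). With all cells of both populations kept, 13 of the 18 higher genes stayed above 0 and 0 past the size, and from the log2 of the mean 13 stayed above 0 and 4 past the size; all 78 lower genes stayed below 0 under both.

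**Figure D1:**
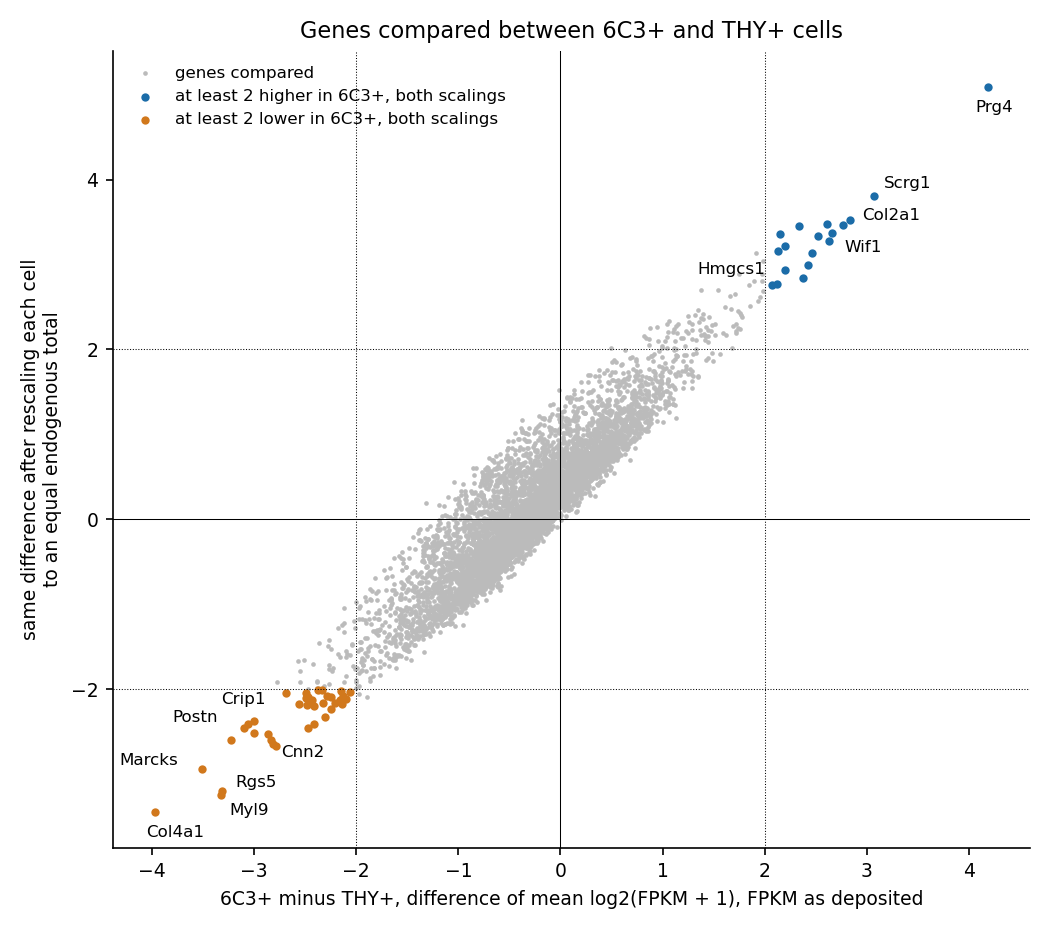
Difference of mean log2(FPKM + 1), 6C3+ minus THY+, for each of 6169 genes as deposited (horizontal axis) and after rescaling each cell to an equal endogenous total (vertical axis). Dotted lines mark the size of 2; the 18 genes at upper right passed it in the positive direction on both scalings and the 37 at lower left in the negative direction, with Prg4 and Col4a1 at the ends.

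The gene with the highest difference was Prg4, which encodes lubricin, the lubricating proteoglycan of joint surfaces (chromosome 1, 150449412 to 150466165, minus strand, mm10). Its FPKM was 0 at the lowest, 100.6 at the median and 6813 at the highest in 6C3+ cells, against 0, 0.00037 and 5106 in THY+ cells. The ranges overlapped, because some cells of each population listed Prg4 at 0 and some THY+ cells reached values as high as most 6C3+ cells. Prg4 was detected in 73.5% of 6C3+ cells (55.6 to 87.1) and 32.6% of THY+ cells (19.1 to 48.5). It was named for its rank in these same data, so the intervals are no test of it. Mean log2(FPKM + 1) was 6.08 in 6C3+ cells and 1.89 in THY+ cells, a difference of 4.19, and of 5.09 after rescaling.

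Other joint-surface genes did not move with Prg4 as a group. Of 11 listed articular surface genes 7 were compared. Among them 1 (Prg4) was higher in 6C3+ cells by at least 2 and 1 (Tppp3, a tubulin-binding protein) was lower. Over all compared genes 0.292% were higher and 1.26% lower. The median difference was 0.33 over the list and -0.32 over all compared genes. The transcription factor gene Barx1 was detected in 6 6C3+ and 2 THY+ cells, and Erg, which marks developing joint cartilage, in 10 6C3+ and 7 THY+ cells. Gdf5, a growth factor of the forming joint, was detected in 2 6C3+ and 3 THY+ cells. Tppp3 was detected in 14 6C3+ and 29 THY+ cells, a difference of -2.38 as deposited, -1.91 after rescaling and -1.50 without the pericyte-rich cells described below.

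Several higher genes encode secreted or extracellular proteins. Scrg1, a small secreted protein studied in chondrogenesis, had a highest FPKM of 7177 and a median of 134.8 in 6C3+ cells, against 2397 and 0 in THY+ cells. It was detected in 58.8% of 6C3+ cells (40.7 to 75.4) and 25.6% of THY+ cells (13.5 to 41.2), and was higher by 3.07 as deposited and 3.80 after rescaling. Wif1, a secreted inhibitor that binds WNT ligands, had a median of 87.1 and a maximum of 2753 FPKM in 6C3+ cells, against 0 and 1982 in THY+ cells. Its difference was 2.66, with 21 6C3+ and 15 THY+ cells positive, and the intervals of the shares overlapped (43.6 to 77.8 in 6C3+ cells, 21.01 to 50.9 in THY+ cells). Clu, which encodes the extracellular chaperone clusterin, was detected in 18 6C3+ and 12 THY+ cells and was 2.42 higher. Cthrc1, a secreted collagen triple helix repeat protein, was detected in 28 6C3+ and 21 THY+ cells and was 2.20 higher, but -0.84 from the log2 of the mean and -0.23 with all cells. Sulf2, an enzyme that trims sulfate groups from extracellular heparan sulfate, was detected in 29 6C3+ and 23 THY+ cells and was 2.15 higher, but -0.095 from the log2 of the mean and -0.017 with all cells.

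**Figure D2:**
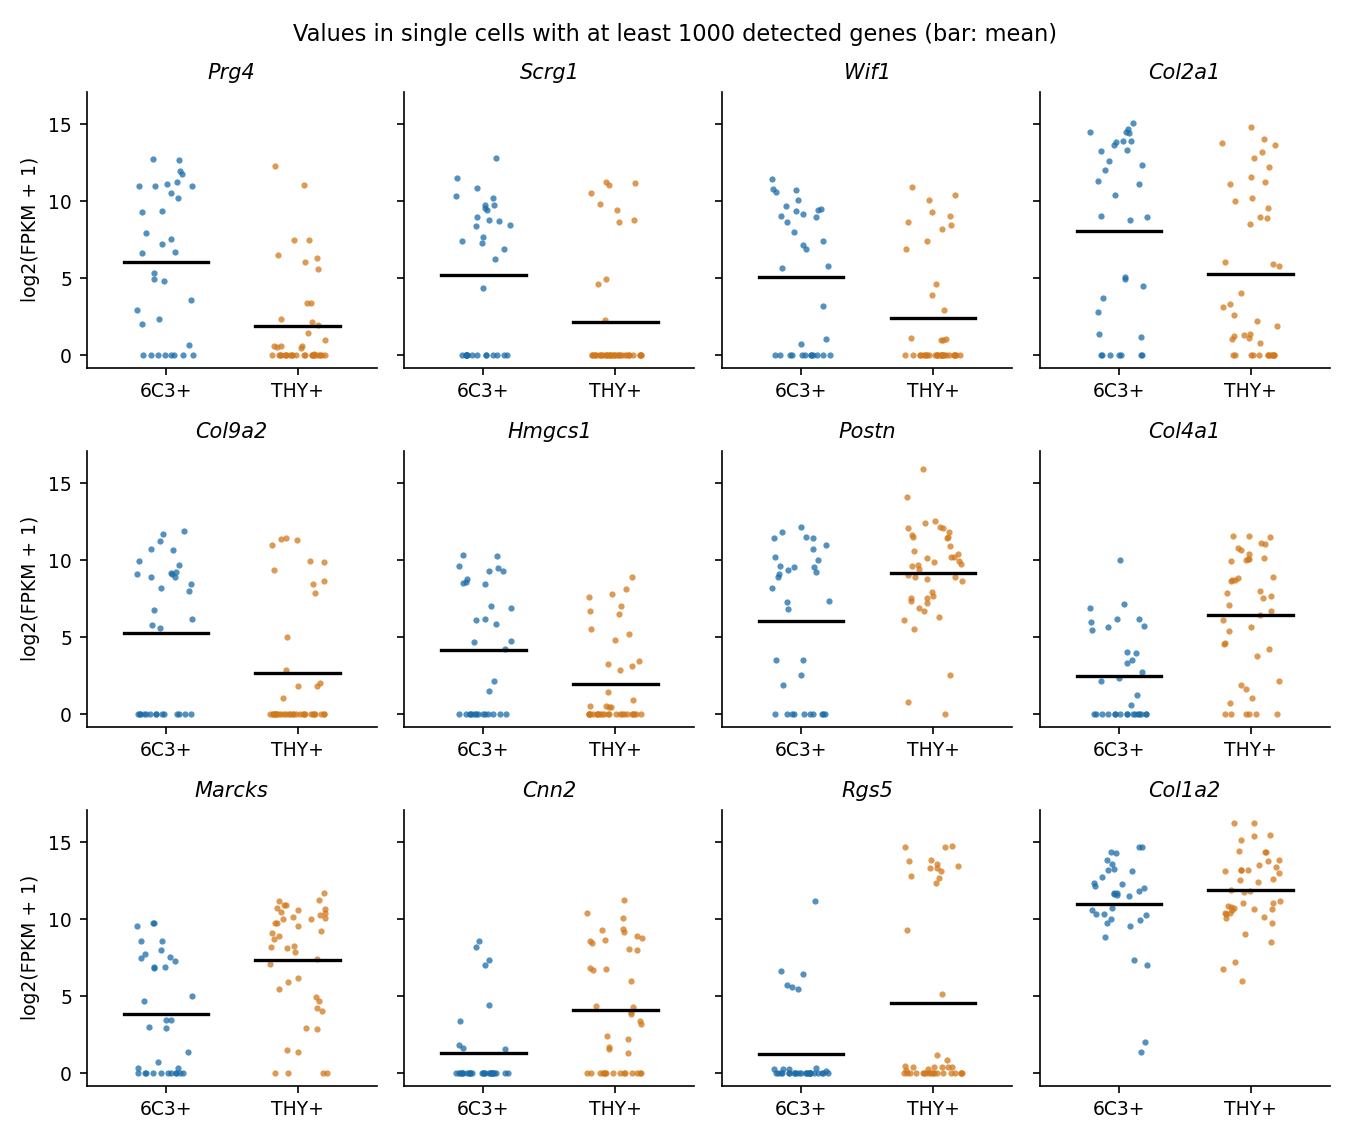
Values of 12 genes in single cells as log2(FPKM + 1), with 6C3+ cells to the left of THY+ cells in each panel and a bar at the mean. Prg4 averages 6.08 in 6C3+ and 1.89 in THY+ cells, Rgs5 in THY+ cells lies in 2 separate ranges, and Col1a2 is detected in every cell of both populations.

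Cartilage matrix genes were higher in 6C3+ cells, with ranges that overlapped almost fully. Of 21 measured chondrocyte genes 17 were compared, and 5 were higher by at least 2 and 0 lower. After rescaling 9 were higher and 0 lower. Over all compared genes 0.292% were higher as deposited and 1.69% after rescaling. The list median was 0.54 as deposited and 1.005 after rescaling, beside -0.32 and 0.11 over all compared genes. Col2a1, the collagen II chain of cartilage fibrils (chromosome 15, 97975602 to 98004695, minus strand), had a median of 939 and a maximum of 35600 FPKM in 6C3+ cells, against 7.66 and 29901 in THY+ cells. The shares of positive cells were close, 79.4% of 6C3+ cells (62.1 to 91.3) and 69.8% of THY+ cells (53.9 to 82.8), so the difference of 2.83 lay more in level than in detection. Col9a2, a chain of the collagen IX that coats those fibrils, was detected in 20 6C3+ and 16 THY+ cells and was 2.63 higher. Col9a1, its partner chain, was detected in 19 6C3+ and 13 THY+ cells and was 2.38 higher. Chad, the cell-binding cartilage protein chondroadherin, was detected in 17 6C3+ and 10 THY+ cells, with medians of 3.06 FPKM in 6C3+ and 0 in THY+ cells, and was 2.76 higher. Lect1, which encodes the vessel-repelling protein chondromodulin, was detected in 19 6C3+ and 16 THY+ cells and was 2.46 higher, but -0.084 from the log2 of the mean.

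Not all cartilage genes followed. Sox9, the transcription factor that drives chondrocyte genes, lay just under the size at 1.98 as deposited and passed it after rescaling at 3.05. Sox9 was detected in 30 6C3+ and 24 THY+ cells. Its mean log2(FPKM + 1) was 6.53 in 6C3+ cells and 5.93 in the 30 THY+ cells with fewer than 7 pericyte transcripts. In the other 13 THY+ cells it was 1.36, so the difference lay largely with those 13 cells, described below. The Sox9 partners Sox5 and Sox6 differed by 0.52 and 0.22. Acan, the main cartilage proteoglycan, was detected in 26 6C3+ and 25 THY+ cells and differed by 0.26. Matn1, a cartilage matrix protein of mature chondrocytes, was detected in 0 6C3+ and 2 THY+ cells, and Epyc, a proteoglycan of growth plate cartilage, in 2 6C3+ and 5 THY+ cells. Both were common in the other sorted cells of the series, with Matn1 in 25 of 37 mSSC and 10 of 11 kept CSP cells.

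A few genes linked to stress, signal damping and sterol synthesis were also among those higher. The heat shock list ran the other way, with 10 of 11 genes below 0 and a median of -1.15 (-0.45 after rescaling). Nupr1, a small chromatin protein induced by stress, had a median of 387 and a maximum of 7605 FPKM in 6C3+ cells, against 5.05 and 5682 in THY+ cells, and was 2.61 higher, but -0.022 with all cells. Rcan1, an inhibitor of the phosphatase calcineurin, was detected in 23 6C3+ and 19 THY+ cells and was 2.52 higher. Errfi1, a feedback inhibitor of the EGF receptor, was detected in 20 6C3+ and 18 THY+ cells and was 2.07 higher. Fam134b, a receptor for the turnover of endoplasmic reticulum, was detected in 14 6C3+ and 3 THY+ cells and was 2.12 higher. Itm2a, a membrane protein seen early in cartilage formation, was detected in 33 6C3+ and 36 THY+ cells, with medians of 2113 FPKM in 6C3+ and 911 in THY+ cells, and was 2.34 higher, but -0.155 from the log2 of the mean and -1.08 with all cells.

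Hmgcs1, which makes the precursor of mevalonate for sterol synthesis, was detected in 20 6C3+ and 15 THY+ cells and was 2.20 higher. Of 17 cholesterol and fatty acid genes 13 were compared. Hmgcs1 alone passed the size as deposited, and 3 passed after rescaling, with 0 lower on either scale. Over all compared genes 0.292% were higher as deposited and 1.69% after rescaling. The others past it after rescaling were Sqle, the squalene epoxidase, detected in 15 6C3+ and 8 THY+ cells and higher by 1.68 as deposited and 2.02 after rescaling, and Insig1, a sterol sensor, by 0.95 and 2.10. The list median was 0.07, beside -0.32 over all compared genes.

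The lower genes were led by collagen IV. Col4a1 (chromosome 8, 11198423 to 11312826, minus strand) encodes a chain of the basement membrane network; its FPKM was 0 at the lowest, 0.952 at the median and 1025 at the highest in 6C3+ cells, against 0, 187.3 and 3078 in THY+ cells. It was detected in 50% of 6C3+ cells (32.4 to 67.6) and 83.7% of THY+ cells (69.3 to 93.2). Col4a1 too was named for its rank, so the intervals are no test of it. The difference was -3.98 as deposited and -3.44 after rescaling. Col4a2, the partner chain read from the opposite strand of the same locus, was detected in 19 6C3+ and 34 THY+ cells and differed by -2.50, and by -1.02 without the pericyte-rich cells. Col18a1, the gene of collagen XVIII, was detected in 8 6C3+ and 19 THY+ cells and differed by -1.95, and by -0.45 without those cells. Of the 13 basement membrane genes 10 were compared. The collagen IV chains Col4a1 and Col4a2 were the 2 lower by at least 2 and 0 were higher, beside 1.26% and 0.292% of all compared genes. The laminin chain Lamb2 and the perlecan gene Hspg2 differed by 0.34 and 0.15. The list median was -0.52 as deposited and -0.17 after rescaling.

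Periosteal and fibroblast genes divided in both directions. Postn encodes periostin, a matricellular protein of periosteum and ligament (chromosome 3, 54361109 to 54391037, plus strand); its FPKM was 0, 226.6 and 4591 at the lowest, median and highest in 6C3+ cells, against 0, 837 and 62102 in THY+ cells. Postn was detected in 70.6% of 6C3+ cells (52.5 to 84.9) and 95.3% of THY+ cells (84.2 to 99.4) and differed by -3.10. Aspn, the proteoglycan asporin, was detected in 17 6C3+ and 32 THY+ cells and differed by -2.34, and by -1.42 without the pericyte-rich cells. Prrx1, a transcription factor of limb mesenchyme, was detected in 16 6C3+ and 33 THY+ cells and differed by -1.79. In the other direction, Dcn, the proteoglycan decorin, was detected in 23 6C3+ and 19 THY+ cells and differed by 1.85. Without the pericyte-rich cells Dcn differed by 1.07. Ly6a, which encodes the progenitor antigen Sca-1, was detected in 11 6C3+ cells (32.4%, 17.4 to 50.5) and 3 THY+ cells (6.98%, 1.46 to 19.1) and differed by 1.86. Of the 14 genes 13 were compared, with 0 higher and 2 lower by at least 2, and after rescaling 2 higher and 2 lower. Over all compared genes 0.292% were higher and 1.26% lower, and after rescaling 1.69% and 0.632%. The list median was 0.17 as deposited and 0.59 after rescaling.

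Collagens I and III were detected in most cells of both populations, and other fibrous collagens in fewer. Col1a2 was detected in all 34 6C3+ cells and all 43 THY+ cells, and Col3a1 in 34 6C3+ and 42 THY+ cells. Col1a2 differed by -0.87 as deposited and 0.16 after rescaling, so its direction depends on the scaling. Col1a1 was detected in 29 6C3+ and 42 THY+ cells, with medians of 2663 FPKM in 6C3+ and 4966 in THY+ cells, and differed by -1.73 and -1.02 on the same scales. Col5a3, a minor collagen V chain, was detected in 12 6C3+ and 18 THY+ cells. Of 12 such genes 0 passed the size in either direction, and the list median was -0.67 as deposited and 0.20 after rescaling. Of 8 tendon genes 7 were compared, and likewise 0 passed the size. Among all compared genes 0.292% were higher and 1.26% lower by that size, so counts of 0 in lists this short lie near those shares. Tnmd, which encodes tenomodulin of tendon and ligament cells, was detected in 8 6C3+ and 18 THY+ cells and differed by -1.68, and Kera, the proteoglycan keratocan, in 4 6C3+ and 11 THY+ cells with a difference of -1.13.

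Genes of the actin cytoskeleton, caveolae and membrane formed the list with the lowest median as deposited; after rescaling the pericyte list lay lower, at -1.86. Of its 20 genes, all compared, 8 were lower by at least 2 and 0 higher, beside 1.26% lower of all compared genes. After rescaling 4 were lower and 0 higher, beside 0.632% lower. The list median was -1.93 as deposited and -1.13 after rescaling, beside -0.32 and 0.11 over all compared genes. Myl9 (chromosome 2, 156775420 to 156781658, plus strand), the regulatory light chain of contractile myosin, was detected in 11.8% of 6C3+ cells (3.30 to 27.5, 4 of 34) and 48.8% of THY+ cells (33.3 to 64.5, 21 of 43). Its difference was -3.33, and -3.24 after rescaling. Cnn2 (chromosome 10, 79988584 to 79996062, plus strand), the actin-binding protein calponin 2, was detected in 9 6C3+ and 28 THY+ cells, with highest values of 383 FPKM in 6C3+ and 2425 in THY+ cells, and differed by -2.84. Cald1, the gene of caldesmon, differed by -3.00, and Tpm2, a tropomyosin, by -2.41 with 8 6C3+ and 25 THY+ cells positive. Vim, the intermediate filament gene vimentin, had medians of 863 FPKM in 6C3+ and 4241 in THY+ cells and differed by -2.78, and -1.91 after rescaling. Cav1, the coat protein of caveolae, and Anxa1, a membrane-binding annexin, both differed by -2.55. Lgals1, the secreted lectin galectin-1, differed by -2.37. Anxa5, another annexin, differed by 0.08.

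Many actin cytoskeleton genes are classical targets of serum response factor, which binds the CArG box, so the stretches upstream of the listed genes were searched for that element on both strands (the box reads the same on both, so each match counted once). Cnn2 and Myl9 were the only 2 of the 18 cytoskeleton list genes with a RefSeq promoter entry to hold it in the 250 bases before a start, 11.1% of them, against 439 of 27025 genes (1.62%) with an entry in that table. The stretches are shown because both genes were also past the size, with the box in capitals, 5' to 3' on the plus strand of GRCm38.p6 (mm10), as chr10:79988484-79988599 and chr2:156775243-156775372. The box of Cnn2 lies 46 bases from its RefSeq start.
Cnn2: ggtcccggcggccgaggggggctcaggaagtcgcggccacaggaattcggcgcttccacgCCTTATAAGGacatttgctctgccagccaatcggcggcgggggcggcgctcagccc
Myl9: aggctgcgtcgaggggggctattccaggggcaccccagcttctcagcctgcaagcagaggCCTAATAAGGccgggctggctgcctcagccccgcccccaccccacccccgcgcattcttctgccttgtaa
Of 8 pericyte list genes and 17 chondrocyte list genes with an entry, 0 held the box in that window, and of 16 immediate early genes 2 did (12.5%), Egr2 and Zfp36. A match is a run of letters and no record of binding.

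Pericyte and smooth muscle genes were the other clearly lower list. Of 13 genes 11 were compared, and 6 were lower by at least 2 and 0 higher on both scalings. Over all compared genes 1.26% were lower as deposited and 0.632% after rescaling. The list median was -1.86 on each scaling, beside -0.32 and 0.11 over all compared genes. Rgs5 (chromosome 1, 169655501 to 169695813, plus strand), a G-protein regulator that marks pericytes, had a median of 0 and a maximum of 2301 FPKM in 6C3+ cells, against 0.316 and 27738 in THY+ cells. It was detected in 17.6% of 6C3+ cells (6.76 to 34.5) and 37.2% of THY+ cells (22.98 to 53.3) and differed by -3.31. Higd1b, a mitochondrial membrane protein of pericytes, was detected in 1 6C3+ and 11 THY+ cells and differed by -2.42. Acta2, smooth muscle actin, was detected in 2 6C3+ and 15 THY+ cells and differed by -2.24. Mcam, the adhesion protein CD146, was detected in 3 6C3+ and 14 THY+ cells and differed by -2.16. Kcnj8, a potassium channel subunit, was detected in 1 6C3+ and 13 THY+ cells and differed by -2.10. Notch3, the Notch receptor of mural cells, was detected in 1 6C3+ and 15 THY+ cells and differed by -2.07. Heyl, a Notch target gene, was detected in 0 6C3+ cells (up to 10.3%) and 10 THY+ cells.

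These transcripts sat together in a minority of THY+ cells. Among THY+ cells, 30 held 1 to 5 of the 13 list transcripts, 0 held 6, and 13 held 7 to 12. Among 6C3+ cells, 33 held 0 to 4 and 1 held 7. In the 13 THY+ cells, Rgs5, Notch3, Col4a1, Postn and Esam, an adhesion molecule of vessel cells, were each detected in 13, and Heyl in 8. In the other 30 THY+ cells Rgs5 was detected in 3, Notch3 in 2, Esam in 2, Heyl in 2, Col4a1 in 23 and Postn in 28. Postn had a mean log2(FPKM + 1) of 9.35 in those 30 and 8.82 in the 13, so it did not set the 13 apart. Rgs5 and Notch3 belong to the list that set the cells apart, so their counts follow in part from that choice. Col4a1, Postn, Esam and Heyl are no members of it. Of 11 endothelial genes, 5 were detected in no kept cell, Esam alone was frequent enough to be compared, and 0 to 2 endothelial transcripts were detected per cell in both populations. The 13 cells had 2045 to 5786 detected genes (median 3193). Thy1 was detected in 4 of the 13 and in 5 of the other 30 THY+ cells.

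**Figure D3:**
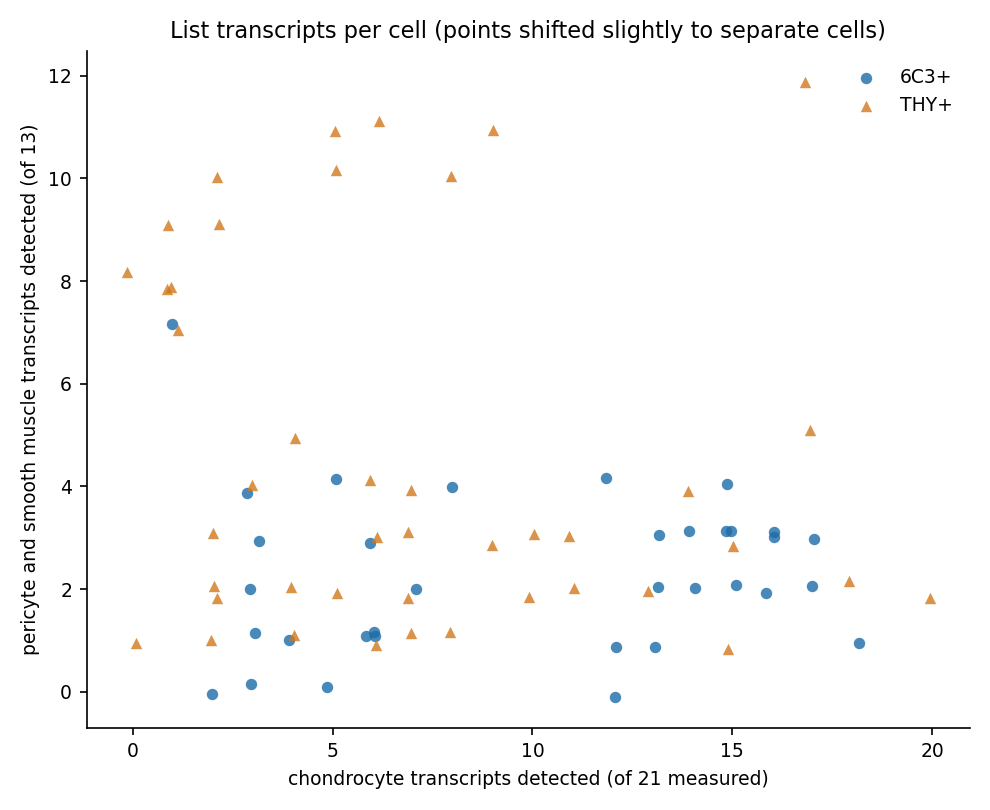
Number of 13 pericyte and smooth muscle transcripts detected in a cell (vertical axis) against the number of 21 chondrocyte transcripts (horizontal axis), with circles for 6C3+ and triangles for THY+ cells. The 13 THY+ cells with 7 or more pericyte transcripts stand above a gap at 6, and 6C3+ cells have a gap between 8 and 12 chondrocyte transcripts.

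With the cells that held at least 7 pericyte transcripts left out, 33 6C3+ and 30 THY+ cells remained, and 20 genes were higher and 44 lower by at least 2. Of the 78 genes lower with all kept cells 23 were among those 44, and 12 stayed past the size when the values were also rescaled. Of the 78, 73 were still below 0. Rgs5 then differed by 0.30, Higd1b by 0.00, Acta2 by -0.40, Mcam by -0.60, Kcnj8 by -0.12 and Notch3 by -0.18, and the list median was -0.12. These genes are members of the list by which the cells were left out, so their change follows from that choice. Outside the list, Postn differed by -3.15, Usp22 by -2.87, Marcks by -2.68 and Cnn2 by -2.22, and these 4 also kept the size when rescaled. Klf6 differed by -2.50 and Col4a1 by -2.35, and when rescaled by -1.95 and -1.91. Others came inside it, with Myl9 at -1.61, Cald1 at -1.48, Vim at -1.85, Cav1 at -1.46, Anxa1 at -1.47, Lgals1 at -1.77, Spin1 at -1.87 and Tpm2 at -1.20. Col1a1, which lay inside the size with all cells, differed by -2.72, and Tnmd by -2.38. Prg4 differed by 4.34, and Col2a1 by 2.54, while Itm2a differed by 0.81, Cthrc1 by 1.23 and Sulf2 by 1.74. The chondrocyte list median was 0.26.

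Regulators and housekeeping genes outside those lists also ranked among the lower ones. Marcks, a protein kinase C substrate that links actin to the membrane, had a median of 8.54 FPKM in 6C3+ and 428 in THY+ cells and was detected in 58.8% of 6C3+ (40.7 to 75.4) and 90.7% of THY+ cells (77.9 to 97.4). Its difference was -3.51, and -2.94 after rescaling. Tmsb4x, thymosin beta 4, which holds free actin, was detected in 21 6C3+ and 38 THY+ cells and differed by -3.22, and by -1.83 without the cells rich in pericyte transcripts. Klf6, a zinc finger transcription factor induced early after stimulation, was detected in 22 6C3+ and 38 THY+ cells, with medians of 5.81 FPKM in 6C3+ and 94.8 in THY+ cells, and differed by -3.06. Crip1, a small LIM domain protein, had medians of 702.1 FPKM in 6C3+ and 3925 in THY+ cells and differed by -3.00. Nr2f2, the nuclear receptor COUP-TFII, was detected in 7 6C3+ and 23 THY+ cells and differed by -2.81, and by -1.01 without the cells rich in pericyte transcripts. Ift43, a part of the transport machinery in cilia, differed by -2.86, and by -1.67 without those cells. Polr2f, a subunit of RNA polymerases, differed by -2.78 with 7 6C3+ and 24 THY+ cells positive. Usp22, a deubiquitinase of the SAGA complex, was detected in 23 6C3+ and 38 THY+ cells and differed by -2.69. Spin1, a reader of histone marks, differed by -2.57 as deposited and -1.66 after rescaling.

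**Figure D4:**
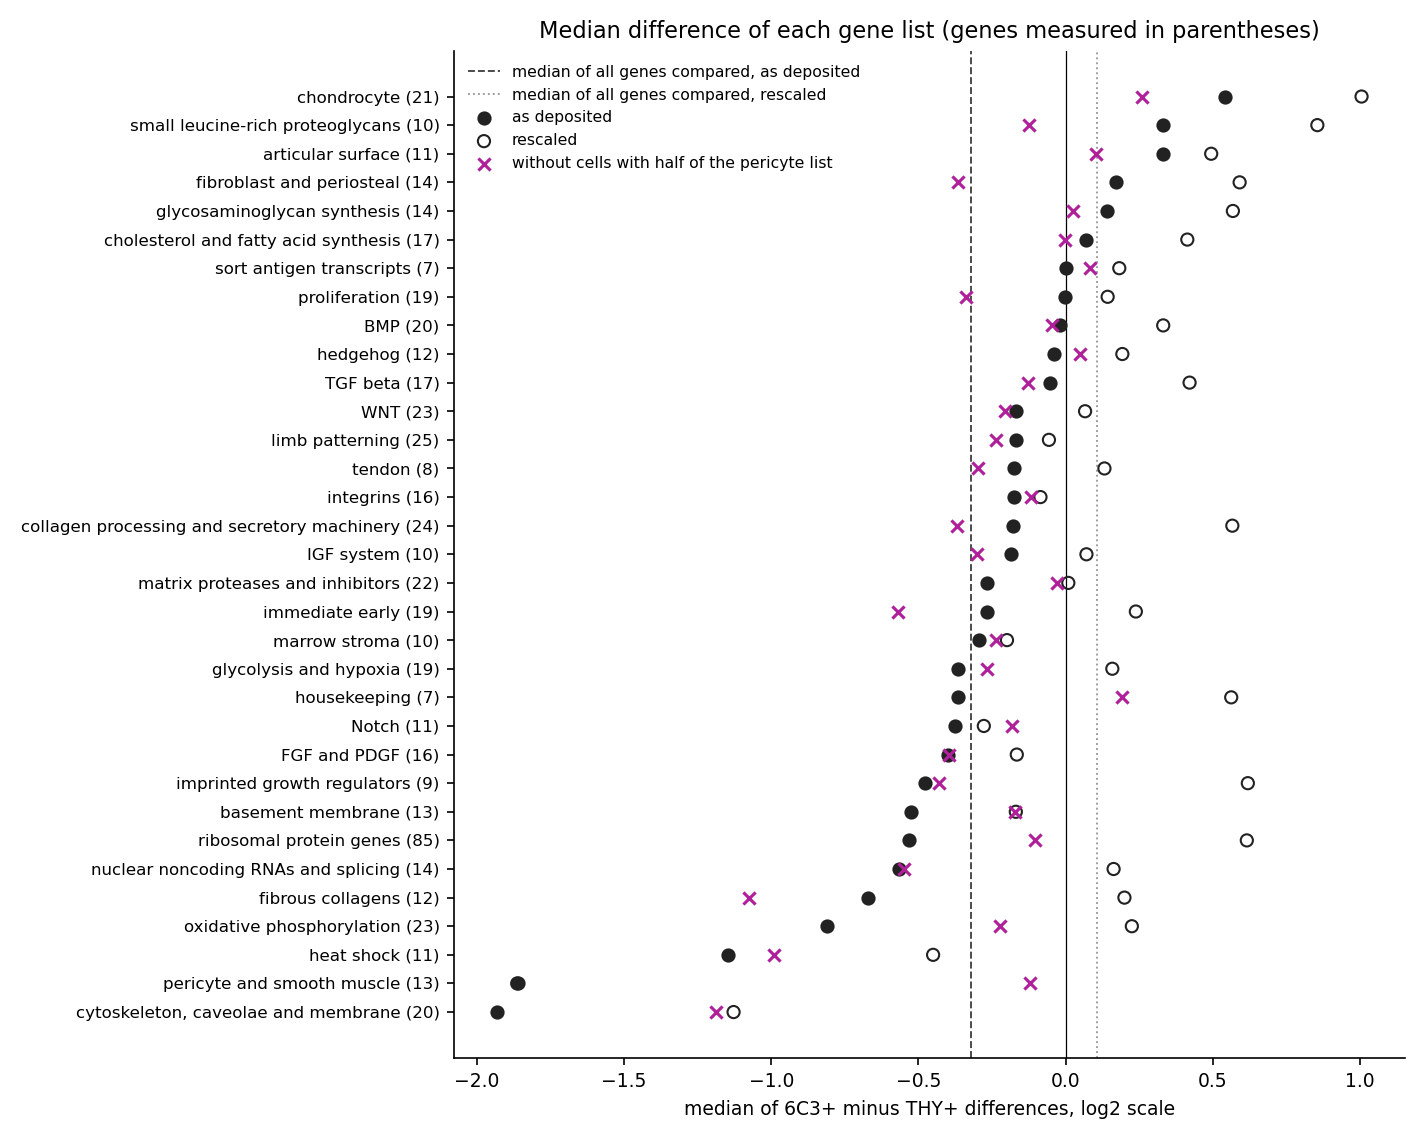
Median of the 6C3+ minus THY+ differences for the gene lists with at least 5 members compared, as deposited (filled), after rescaling (open), and without cells holding at least 7 of 13 pericyte transcripts (crosses), with vertical lines at the medians of all compared genes (-0.32 as deposited, 0.11 rescaled). The cytoskeleton list (-1.93) and the pericyte list (-1.86) lie lowest and the chondrocyte list (0.54) highest as deposited.

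Signalling lists held few genes past the size. In the WNT list of 23 genes 8 were compared, of which Wif1 was the 1 higher and 0 were lower. Over all compared genes 0.292% were higher and 1.26% lower. Lef1, a transcription factor that acts with beta-catenin, was detected in 0 6C3+ cells (up to 10.3%) and 8 THY+ cells. In the FGF and PDGF list of 16 genes 11 were compared, with 0 higher and 1 lower. The lower gene was Spry4, a feedback inhibitor of growth factor receptors, detected in 9 6C3+ and 22 THY+ cells. It differed by -2.10, and by -0.91 without the pericyte-rich cells. Pdgfa, a PDGF ligand, was detected in 4 6C3+ and 14 THY+ cells and differed by -1.86, and by -0.40 without those cells. The receptor genes Pdgfra and Pdgfrb differed by 0.56 and -1.57, and without those cells by -0.065 and -0.094. Pdgfrb is itself a member of the pericyte list by which those cells were chosen. In the Notch list of 11 genes 6 were compared and 1, Notch3, was lower. Its ligand gene Jag1 differed by -1.92, and by -0.46 without those cells. The BMP list of 20 genes (12 compared), the TGF beta list of 17 (15 compared) and the hedgehog list of 12 (7 compared) had 0 past the size. Their medians were -0.02, -0.05 and -0.04. In the IGF system of 10 genes 0 passed. Igf2, a fetal growth factor, differed by 1.04, and by 0.04 without the pericyte-rich cells. Igf1r, the receptor of the family, differed by -1.79 with 18 6C3+ and 36 THY+ cells positive, and by -2.36 without the pericyte-rich cells.

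Of 22 matrix proteases and inhibitors 15 were compared, with 0 higher and 2 lower, beside 0.292% and 1.26% of all compared genes. Timp3, a matrix-bound metalloprotease inhibitor, had medians of 15.3 FPKM in 6C3+ and 148.4 in THY+ cells and differed by -2.12 as deposited, -1.04 after rescaling and -0.66 without the pericyte-rich cells. Serpine2, a protease inhibitor, was detected in 15 6C3+ and 26 THY+ cells and differed by -2.04, but by 0.77 without the cells rich in pericyte transcripts. Mmp2, a gelatinase, was detected in 32 6C3+ and 31 THY+ cells and differed by 1.15 as deposited and 2.30 after rescaling. Of 11 heat shock genes 0 passed the size as deposited. Their median was -1.15, and -0.45 after rescaling. The small heat shock protein gene Hspb1 was detected in 1 6C3+ and 15 THY+ cells and differed by -1.90 as deposited and -2.09 after rescaling. The 23 oxidative phosphorylation genes had a median of -0.81 as deposited and 0.22 after rescaling, and the 85 ribosomal protein genes -0.53 and 0.62, so the direction of both lists turns with the scaling.

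Of 10 marrow support genes 6 were compared, and 0 of them passed the size. Cxcl12, the chemokine that retains blood stem cells, was detected in 7 6C3+ and 8 THY+ cells, and Lepr, the leptin receptor of adult marrow stroma, in 1 6C3+ and 5 THY+ cells. Kitl, the ligand of the KIT receptor, was detected in 3 6C3+ and 12 THY+ cells, with 7 of the 12 among the 13 THY+ cells rich in pericyte transcripts. Ebf1, a transcription factor of stromal and B-lineage cells, was detected in 12 6C3+ and 23 THY+ cells, with 12 of those 23 among the same 13, and differed by -1.90, and by -0.72 without those cells. Foxc1, a transcription factor of marrow stroma and developing skeleton, ran the other way, with 20 6C3+ and 15 THY+ cells positive and a difference of 1.69 as deposited and 2.28 after rescaling. Of 13 osteoblast genes only 2 were frequent enough to be compared, and 0 of them passed the size. The counts of 0 in the marrow and osteoblast lists lie near the shares among all compared genes, 0.292% higher and 1.26% lower. Ibsp, bone sialoprotein, was detected in 2 6C3+ and 1 THY+ cells.

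Within 6C3+ cells the cartilage transcripts fell into 2 ranges. Of the 34 cells, 16 held 1 to 8 of the 21 chondrocyte transcripts, 0 held 9 to 11, and 18 held 12 to 18. THY+ cells ran from 0 to 20 without such a gap, and 10 of 43 held at least 11. Prg4 is no member of that list. It was detected in all 18 of the chondrocyte-rich 6C3+ cells and in 7 of the 15 6C3+ cells with fewer than 11 chondrocyte and fewer than 7 pericyte transcripts. The matching counts in THY+ cells, leaving out those with at least 7 pericyte transcripts, were 5 of 9 and 5 of 21. Wif1 followed the same cells, with 18 of 18 and 3 of 15 in 6C3+ and 4 of 9 and 8 of 21 in THY+ cells. Col4a1 went the other way, with 3 of 18 and 13 of 15 in 6C3+ and 5 of 9 and 18 of 21 in THY+ cells. Ly6a was detected in 1 of 18 and 10 of 15 6C3+ cells, and in 0 of 9 and 3 of 21 THY+ cells. Postn was detected in 8 of 18 and 15 of 15 6C3+ cells, against 8 of 9 and 20 of 21 THY+ cells. The chondrocyte-rich 6C3+ cells had a median of 2479 detected genes and the other 15 a median of 2980. These ranges were noticed in the data and the counts are descriptions.

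Cells with both genes of a pair were counted as a description of each population. All 17 6C3+ cells with Chad also held Prg4, as did all 21 with Wif1, in a population where 25 of 34 cells held Prg4. Of THY+ cells 3 of 10 with Chad and 6 of 15 with Wif1 held it, where 14 of 43 cells did. The contrast between populations thus follows in part from how common Prg4 was in each. Both collagen IX chains were found together in 19 6C3+ cells and Col9a2 alone in 1. In THY+ cells both were found in 10, Col9a2 alone in 6 and Col9a1 alone in 3. Every 6C3+ cell held Prg4, Postn or both: 15 held both, 10 Prg4 alone and 9 Postn alone. In THY+ cells 13 held both, 1 Prg4 alone, 28 Postn alone and 1 neither. A single THY+ cell held 17 chondrocyte and 12 pericyte transcripts, and its 5786 detected genes were the most of any THY+ cell kept. Capture sites were imaged, per the labels, and no doublet caller was run here.

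**Figure D5:**
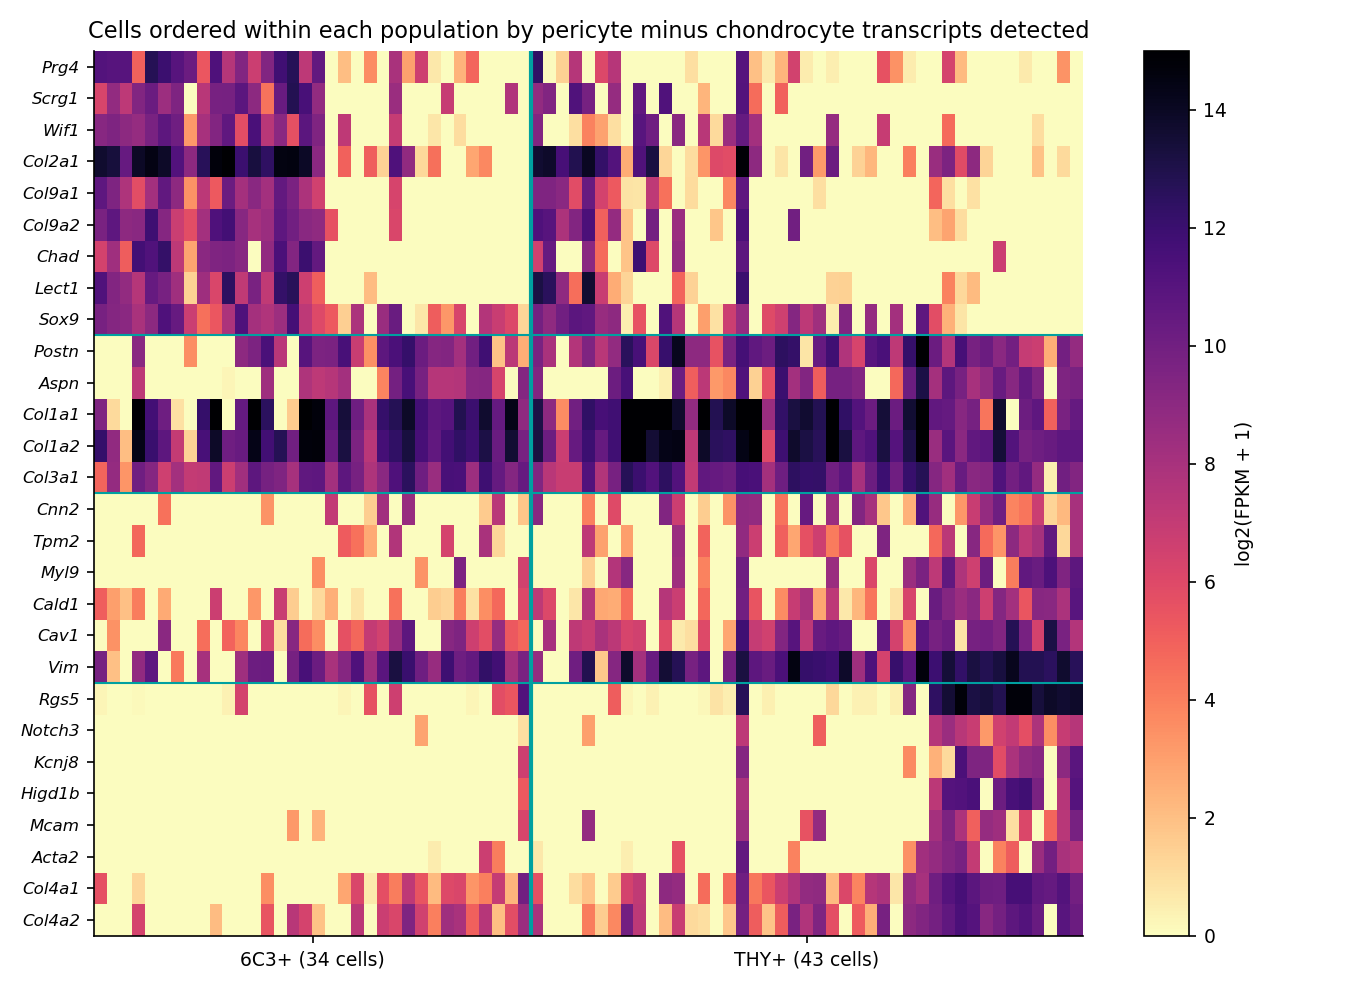
Values of 28 genes as log2(FPKM + 1) in each 6C3+ cell (left, 34 columns) and THY+ cell (right, 43 columns), with cells ordered within a population by pericyte minus chondrocyte transcripts detected. Cartilage genes fill the first 18 columns of 6C3+ cells, and pericyte genes fill the last columns of THY+ cells.

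Levels in the other sorted populations are given as deposited, without rescaling. Spike-ins took at most 0.0276% of FPKM in mSSC and 0.00428% in kept CSP cells, against medians of 18.9% in 6C3+ and 20.8% in THY+ cells. mSSC and CSP cells also had no S index in common with 6C3+ or THY+ cells. A difference in library scale therefore cannot be told apart from one of the population here. Prg4 was detected in 19 of 37 mSSC and 1 of 11 kept CSP cells, with mean log2(FPKM + 1) of 3.37 in mSSC and 0.36 in CSP cells, below the 6.08 of 6C3+ cells. Col2a1 averaged 13.05 in mSSC and 13.21 in CSP cells, above both the 8.10 of 6C3+ and the 5.27 of THY+ cells. Chad, Col9a2 and Scrg1 also averaged higher in mSSC and CSP than in 6C3+ and THY+ cells, with Scrg1 at 9.77 in mSSC, 9.76 in CSP, 5.22 in 6C3+ and 2.15 in THY+ cells. Col4a1 averaged 0.60 in mSSC and 0.09 in CSP cells, below the 2.45 of 6C3+ and the 6.42 of THY+ cells. Enpep and Thy1 were detected in 0 mSSC and 0 CSP cells.

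Markers of blood cells were rare. Of the 12 myeloid genes 11 were detected in no kept cell, 33 of 34 6C3+ and 41 of 43 THY+ cells held none, and the summed FPKM of the list reached 4.69 in 6C3+ and 64.6 in THY+ cells. No pre-B or erythroid gene was frequent enough to be compared. Of the endothelial list, Esam was detected in 1 6C3+ and 15 THY+ cells. Of the skeletal muscle list, 1 gene was frequent enough, Acta1, a muscle actin, in 6 6C3+ and 17 THY+ cells. No Schwann list transcript was detected in 24 of 34 6C3+ and 30 of 43 THY+ cells. The part of muscle and Schwann cell transcripts in the differences was not tested.

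A few compared genes were detected in cells of 1 population alone. Such a gene could enter the comparison only through its share of positive cells in that population. How many there are thus follows in part from the filter on low genes. Of those compared, 2 were detected in 0 THY+ cells (up to 8.22%): Sbsn, suprabasin, in 9 6C3+ cells and Birc3, an inhibitor of apoptosis, in 7. In the other direction 13 were detected in 0 6C3+ cells, among them Mex3b, an RNA-binding protein, in 11 THY+ cells, and Adgrf5, an adhesion receptor, in 10. Sbsn was detected in 5 of the 18 chondrocyte-rich 6C3+ cells and in 4 of the other 15.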

How the data were processed

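Single-cell FPKM values were used as the authors deposited them, in a table of 24388 genes and 92 spike-ins. Per the submitters' processing notes the build was mm10 and SAMtools was used; aligner, FPKM program and annotation: not given in the sources used here. Depth in reads is unknown, and the table holds 0 mitochondrial genes. Spike-ins were dropped, cells with at least 1000 genes at FPKM of at least 1 were kept, and genes reaching detection in 20% or more of either population were compared by mean log2(FPKM + 1), 6C3+ minus THY+. List medians were taken over all measured members, and counts past the size over the members that were compared. Cnmd is listed as Lect1, and Snorc and Hbb-bt were not matched. Named genes were the 15 highest and 15 lowest among those found in 50% or more of the higher population and with the same direction after rescaling, up to 6 members of each of 44 lists, and all sort antigens; ribosomal protein genes, pseudogenes, unnamed models and sex-linked markers were not eligible. Errfi1, Fam134b, Adgrf5, Mex3b, Birc3, Sbsn and list members beyond these were named after their values were seen. The members and lists were chosen with earlier results of these data known. Coordinates came from GENCODE on GRCm38 (mm10) and promoter sequences from RefSeq. Alternatives were other pseudocounts, rescaling, the log2 of the mean, other detection limits and gene filters, other sets of cells, and a size of 1; leaving out pericyte-rich cells together with rescaling was added after seeing the data. The procedure was tested on simulated data. Computations used pandas 2.3.3, numpy 2.4.6, scipy 1.17.1 and matplotlib 3.10.9 in Python 3.11.15.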

Additional observations from a re-analysis of the deposited data

How the results depend on the processing

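No paired analysis was possible because each population is 1 sample and no test was run. Shares of the compared genes past the size, higher and then lower in 6C3+ cells, were 0.292% and 1.26% as reported. They were 1.38% and 5.06% with a pseudocount of 0.1, 0.0324% and 0.227% with 10, 1.69% and 0.632% after rescaling, and 1.28% and 24.4% from the log2 of the mean. Without a filter on low genes (0.0738% and 0.320%), with detection at 10 (0.444% and 1.92%) and with detection above 0 the numbers of genes were the same 18 and 78, over other totals. All 92 6C3+ and 72 THY+ cells gave 0 and 5.77%. The lower share was 3.24% in cells with at least 2000 genes, 5.16% in cells matched on detected genes and 0.704% without pericyte-rich cells. Shares were 1.06% and 0.727% without the first 2 index rows, 2.18% and 0.416% without pericyte-rich cells and rescaled, and 2.66% and 14.6% at a size of 1. Leaving out the first 2 index rows left 28 6C3+ and 23 THY+ cells. There 16 of the 18 higher and only 22 of the 78 lower genes stayed past the size. All 18 were still above 0 and all 78 below 0. From the log2 of the mean, Cthrc1 differed by -0.84, Itm2a by -0.155, Lect1 by -0.084 and Sulf2 by -0.095. With all cells, Cthrc1 differed by -0.23, Itm2a by -1.08, Nupr1 by -0.022 and Sulf2 by -0.017. Without pericyte-rich cells, Rgs5 differed by 0.30 and Serpine2 by 0.77, and with rescaling as well Rgs5 differed by 0.31, Serpine2 by 1.30 and Timp3 by 0.35. Rgs5 is a member of the list by which those cells were chosen. The cause of these changes was not tested. Unknown read depth and 1 sample for each population limit every value.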

Other observations

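Immediate early genes, which are induced within minutes of stimulation, were common in both populations. Fos was detected in 30 6C3+ and 39 THY+ cells and differed by -0.27 as deposited and 0.65 after rescaling, so its direction turned. Klf4 was detected in 27 6C3+ and 28 THY+ cells and differed by 1.51 and 2.30. Jun was detected in 25 6C3+ and 36 THY+ cells and differed by -1.66 and -1.01. Of 19 such genes 18 were compared, and 0 were higher and 1, Klf6, was lower by at least 2 as deposited. After rescaling 1 was higher and 1 lower. Over all compared genes 0.292% were higher and 1.26% lower, and after rescaling 1.69% and 0.632%.

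Of 16 integrin subunit genes 9 were compared, and 0 of them passed the size. That lies near the shares among all compared genes, 0.292% higher and 1.26% lower. Itgb1, the most shared beta chain, was detected in 27 6C3+ and 38 THY+ cells and differed by -1.91 as deposited and -0.91 after rescaling. Itga1, the alpha chain of a collagen receptor, was detected in 9 6C3+ and 18 THY+ cells, and Itga7, the alpha chain of a laminin receptor, in 3 6C3+ and 12 THY+ cells.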
